A study of Homo sapiens with 6 samples.

Results

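The genes described here are 46 enzymes and partner proteins that make, use and recycle glutathione and thioredoxin, or that supply the NADPH these systems consume. They were taken from a list of names that was drawn up with earlier results of these data known, so that shares of members set beside shares of all genes are descriptions. A member counted as measured when the array held a probe set naming that gene alone, which was so for 43 of the 46, out of 12165 genes measured in all. PGD was named only by a probe set that names 2 genes, and PRDX5 and MGST1 are likewise not analysed here.

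LNCaP cells, an androgen-responsive human prostate cancer line, had been grown in RPMI with 10% FBS and exposed to 20 µM gedunin or to its solvent DMSO for 6 h. Gedunin is a limonoid from neem and related trees. There were 3 arrays of each group, numbered as biological replicates, and whether they came from separately grown cultures is not stated beyond that, so the p-values reflect only how far these arrays differ, which may be technical. Each array gave 1 intensity for each of 22215 probe sets, and array medians lay between 31.1 and 32.

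The array labelled DMSO 3 did not carry the markers of LNCaP cells. The summed intensity of 8 measured genes of prostate luminal cells was 206.6 on it, against 14140 and 14410 on DMSO 1 and 2 and 13220 to 13860 with gedunin. The summed intensity of 9 measured leukocyte genes was 21530 on it, against 923.7 and 910.2 on DMSO 1 and 2 and 743.9 to 829.8 with gedunin, where LCP1 made up most of the sum. Of those 9 genes 7 stood at least 8-fold above DMSO 1 and 2. The others were LCP1 (5459 against 748 and 735) and CD3D, which was no higher there (20.9 against 25.85 and 23.1). The comparison below is therefore gedunin (3 arrays) against DMSO 1 and 2, the 5-array fit, and the array labelled DMSO 3 is given apart or in a fit of all 6 arrays. In bulk RNA, fewer cells of a type and less RNA per cell cannot be told apart.

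Glutathione is a cysteine-containing tripeptide that cells hold as their main thiol buffer. Its synthesis starts with glutamate-cysteine ligase, peroxidases spend it on peroxides, transferases attach it to electrophiles, and glutathione reductase restores it with NADPH. The thioredoxin system runs in parallel: thioredoxin reductase passes electrons from NADPH to thioredoxin, which reduces peroxiredoxins and other proteins. The transcription factor NRF2, held back by KEAP1 until cells meet electrophiles or oxidants, is known to raise many of these genes by binding antioxidant response elements with small MAF partners.

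In the 5-array fit 9 of the 43 measured members were higher with gedunin and 1 was lower (limma, Benjamini-Hochberg adjusted p under 0.05 over all probe sets). Over all 12165 genes 17.6% were called, 8.22% higher and 9.35% lower, against 23.3% of the members. The all-gene counts rest on both DMSO arrays: 1000 genes were higher and 1138 lower, against 597 and 555 without DMSO 1 and 653 and 528 without DMSO 2, while 9 and 10 members were higher. Called rises of at least 2-fold were seen for 7 members, against 1.84% of all genes, and such falls for 0 members, against 0.592% of all genes (2.43% in either direction). The genes that rose were GCLM and GCLC (glutathione synthesis), TXNRD1 and GLRX (thioredoxin and glutaredoxin), OSGIN1, NQO1, NQO2 and PIR (quinone reduction and related genes) and ME1 (NADPH supply). The gene that fell was TXN2. All 3 gedunin arrays lay above both DMSO arrays for 13 members and below them for 13, beside 20.2% and 26.0% of all genes, or 46.2% either way. The median log2 fold change of the members was -0.03 and that of all genes -0.02. When each array was centred on GAPDH and ACTB the median of all genes was -0.15, with 710 genes higher and 2562 lower. The 9 rises then stood and 7 members were lower (TXN2, MGST2, GSTO1, GSTK1, MGST3, PRDX4 and TXNRD2). With all 6 arrays 2 members were higher, OSGIN1 and GCLM, and 0 were lower, where 1.68% of all genes were called, 1.32% higher and 0.353% lower. The part that RNA of other cells on the array labelled DMSO 3 has in the 6-array values was not tested. A call kept in the 6-array fit is therefore no further test of gedunin in LNCaP cells. At an unadjusted p of 0.05 that fit had 1625 genes, and the 5-array fit 3692.

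**Figure D1:**
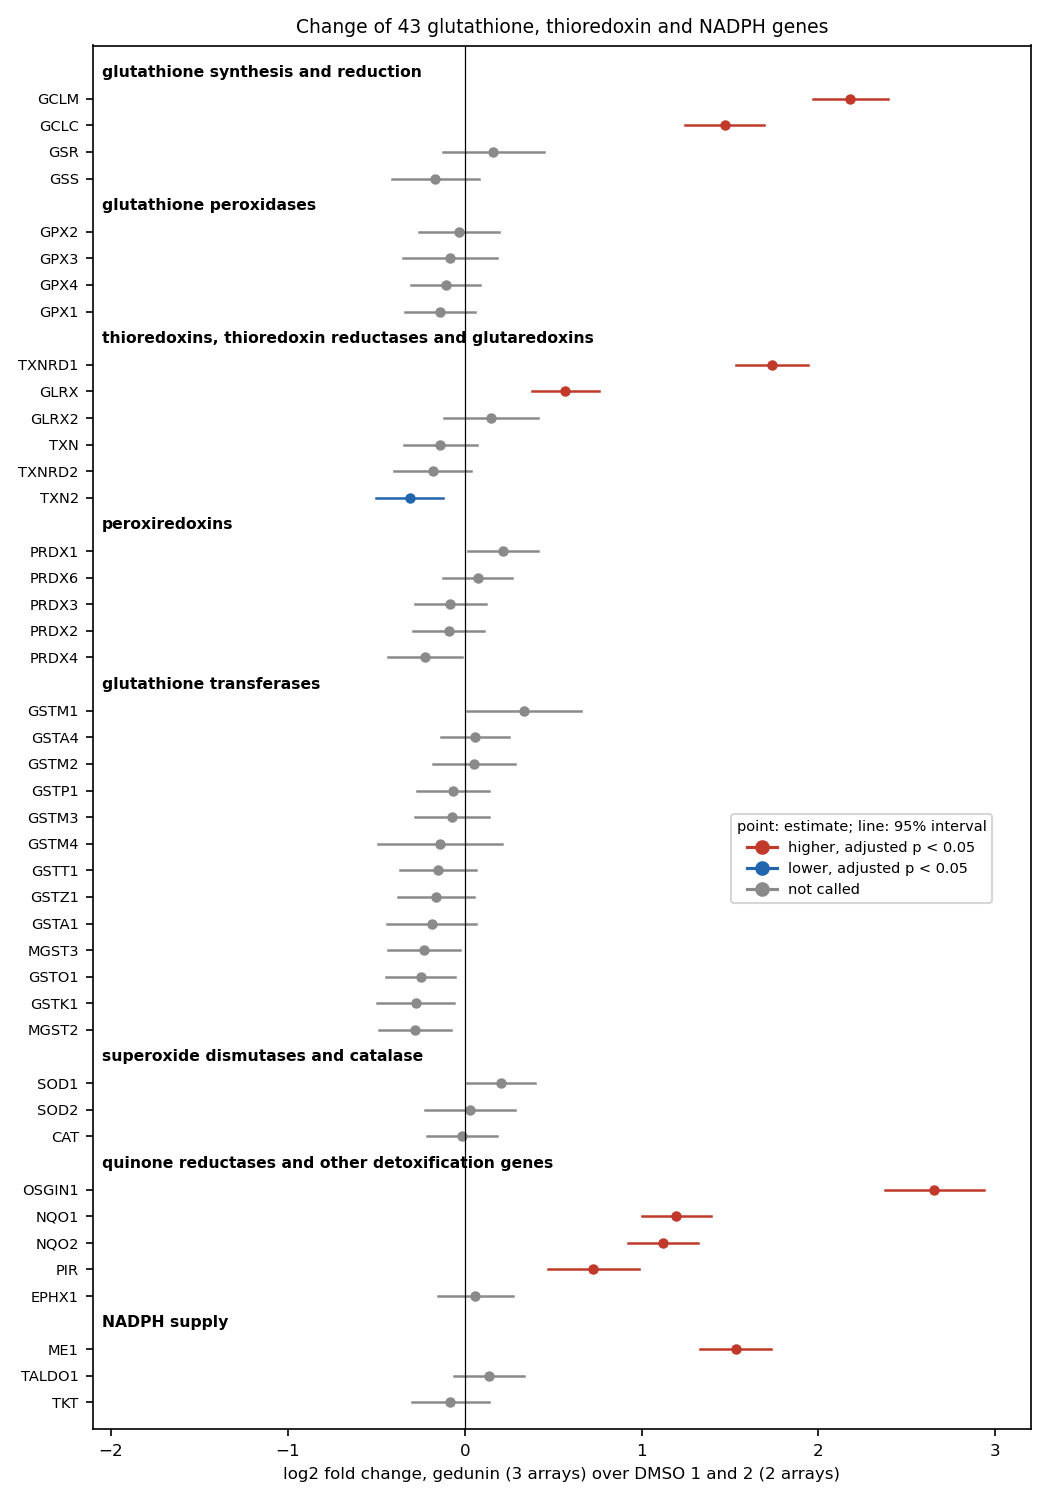
Log2 fold change, gedunin (3 arrays) over DMSO 1 and 2 (2 arrays), of the 43 measured members by role. Points are limma estimates, lines their 95% intervals, red and blue points passed an adjusted p of 0.05 (9 higher, 1 lower). The rises stand in 4 of the 8 roles, and the peroxidases, peroxiredoxins, transferases and the dismutase and catalase group hold grey points alone.

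The upstream sequences of the 5 members with the largest rises are printed here. They were searched for TGACNNNGC, the core of the antioxidant response element, a site NRF2 is known to bind. Each is the 250 bases before the RefSeq start on build GRCh38.p14, 5′ to 3′ on the strand of the gene, with matches to TGACNNNGC on either strand in capitals. They lie at chr16:83952990-83953239 (plus strand, OSGIN1), chr1:93909431-93909680 (minus strand, GCLM), chr12:104215529-104215778 (plus strand, TXNRD1), chr6:83431052-83431301 (minus strand, ME1) and chr6:53545102-53545351 (minus strand, GCLC).
OSGIN1: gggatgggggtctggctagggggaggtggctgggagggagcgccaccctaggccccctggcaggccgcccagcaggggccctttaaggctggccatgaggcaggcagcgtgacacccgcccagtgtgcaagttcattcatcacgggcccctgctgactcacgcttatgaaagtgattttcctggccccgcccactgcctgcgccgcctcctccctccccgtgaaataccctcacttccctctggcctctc
GCLM: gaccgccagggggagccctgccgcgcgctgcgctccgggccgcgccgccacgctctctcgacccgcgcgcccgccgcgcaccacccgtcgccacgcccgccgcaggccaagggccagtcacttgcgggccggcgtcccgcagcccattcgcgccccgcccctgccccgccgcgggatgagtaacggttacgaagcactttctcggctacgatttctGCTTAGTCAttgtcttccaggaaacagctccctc
TXNRD1: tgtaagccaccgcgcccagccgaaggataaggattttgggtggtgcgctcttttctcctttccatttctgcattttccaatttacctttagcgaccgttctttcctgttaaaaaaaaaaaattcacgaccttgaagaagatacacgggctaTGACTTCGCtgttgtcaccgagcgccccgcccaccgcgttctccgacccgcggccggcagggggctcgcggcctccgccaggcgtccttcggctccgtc
ME1: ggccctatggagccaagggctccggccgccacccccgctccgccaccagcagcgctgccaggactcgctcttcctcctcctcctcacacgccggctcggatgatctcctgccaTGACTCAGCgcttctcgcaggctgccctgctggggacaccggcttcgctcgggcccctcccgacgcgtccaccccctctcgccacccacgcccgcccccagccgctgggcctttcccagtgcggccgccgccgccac
GCLC: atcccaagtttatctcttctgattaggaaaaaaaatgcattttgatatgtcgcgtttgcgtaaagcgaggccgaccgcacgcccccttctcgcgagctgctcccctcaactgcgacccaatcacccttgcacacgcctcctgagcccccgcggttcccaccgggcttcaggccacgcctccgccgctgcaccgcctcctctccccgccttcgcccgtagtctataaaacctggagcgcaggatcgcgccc

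GCLM carried GCTTAGTCA, the element read on the opposite strand, beginning 34 bases before the start. TXNRD1 carried TGACTTCGC beginning 99 bases before it, and ME1 TGACTCAGC beginning 137 bases before it. A second match of TXNRD1 crosses the start, and a second match of ME1 lies after it. The windows of OSGIN1 and GCLC held 0 matches, which says only that these letters are not in this stretch. RefSeq windows of 300 bases (250 before and 50 after the start) were found for 38 of the 46 members. Any further start that a member may have was not searched. A match was present in 4 of the 9 windows of members that rose (GCLM, TXNRD1, ME1 and PIR), or 44.4%, and in 5 of 26 windows of measured members that were not called (GPX2, GSTA4, GSTM1, GSTP1 and GSTO1), or 19.2%. The share was 14.8% of 9711 windows of genes on the array and 13.3% of 35116 windows in all. These shares are descriptions of letters in a window and were not tested. Whether NRF2 or any other factor acted on these genes was not tested either.

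Both subunits of the ligase that begins glutathione synthesis rose, and the later enzyme and the reductase were not called. GCLM, the modifier subunit of glutamate-cysteine ligase, read 1423, 1358 and 1419.5 on the 3 gedunin arrays and 332 and 287 on DMSO 1 and 2. Every gedunin array thus lay far above both DMSO arrays, with a log2 fold change of 2.18 ± 0.09 (moderated standard error, limma adjusted p = 3.84e-07), a 4.53-fold rise. GCLC, the catalytic subunit, read 681, 758 and 815 with gedunin and 271 and 269.5 on DMSO 1 and 2, again without overlap. It rose by 1.47 ± 0.10 (adjusted p = 7.76e-06), and its other probe set rose by 1.28 ± 0.11.

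GSS, glutathione synthetase, which adds the glycine, was not called. It read 710.2, 728 and 795 with gedunin and 928 and 751 on DMSO 1 and 2, so that the groups overlapped, with a log2 fold change of -0.17 ± 0.11 (limma adjusted p = 0.392). GSR, glutathione reductase, had 0.16 ± 0.13 (limma adjusted p = 0.484). The 95% intervals of GSS and GSR reached no further than -0.41 and 0.45. Taken per array against the DMSO 1 and 2 mean, the log2 ratio of GCLC to GSS was higher by 1.56, 1.68 and 1.66 on the gedunin arrays, while that of GCLM to GCLC was higher by 0.87, 0.65 and 0.61. The DMSO arrays deviated from their mean by at most 0.15 and 0.10 in these ratios. The pairs were chosen after their values were seen and carry no test.

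On the array labelled DMSO 3, GCLM read 123 and GCLC 95.9, both below DMSO 1 and 2. With all 6 arrays GCLM rose by 2.62 ± 0.39 (limma adjusted p = 0.0480), and GCLC had 1.97 ± 0.43 (adjusted p = 0.135), so that the call of GCLC was lost with a larger estimate and a larger error. GSS and GSR had 0.26 and 0.71 in that fit, neither called.

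Thioredoxin reductase rose in its cytosolic form, and neither thioredoxin was called higher. TXNRD1, the cytosolic selenoenzyme that reduces thioredoxin, read 3861, 3857 and 4103 with gedunin and 1120.0 and 1244 on DMSO 1 and 2. The groups lay well apart, with a rise of 1.74 ± 0.09 (limma adjusted p = 1.25e-06), or 3.34-fold. TXNRD2, its mitochondrial counterpart, read 243, 254 and 248 with gedunin and 259 and 306 on DMSO 1 and 2. The gedunin arrays were the lower ones, but the difference of -0.18 ± 0.10 was not called (adjusted p = 0.283). The log2 ratio of TXNRD1 to TXNRD2 was thus higher by 1.92 ± 0.06 (SD, n = 3) on the gedunin arrays than the mean of DMSO 1 and 2. This ratio too was chosen after the values were seen.

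TXN, cytosolic thioredoxin, the substrate of TXNRD1, read 1349.9, 1303 and 1212 with gedunin and 1475 and 1361 on DMSO 1 and 2. It had -0.14 ± 0.09 (limma adjusted p = 0.395), with an interval from -0.35 to 0.07. TXN2, mitochondrial thioredoxin, read 437, 451 and 443 with gedunin and 558 and 543 on DMSO 1 and 2, without overlap. It fell by 0.31 ± 0.08 on the log2 scale (limma adjusted p = 0.0327). That call was lost when any 1 of the 5 arrays was left out (adjusted p between 0.062 and 0.176), and the other probe set of TXN2 was not called (-0.15 ± 0.10).

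Glutaredoxins use glutathione to reduce protein disulfides. GLRX, the cytosolic form, read 159.9, 165 and 157 with gedunin and 108 and 108 on DMSO 1 and 2, with a rise of 0.57 ± 0.08 (limma adjusted p = 0.00139). The arrays of each group stood close together and did not overlap, while its second probe set had 0.29 ± 0.11 (adjusted p = 0.123). GLRX read 794 on the array labelled DMSO 3, the only member that rose in the 5-array fit and changed sign with all 6 arrays (-0.39 ± 0.81, limma adjusted p = 0.863). GLRX2, found mainly in mitochondria, had 0.15 ± 0.12 (limma adjusted p = 0.490). TXNRD1 had 2.29 ± 0.47 with all 6 arrays (limma adjusted p = 0.117) and TXN2 -0.21 ± 0.11 (adjusted p = 0.573), neither called.

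**Figure D2:**
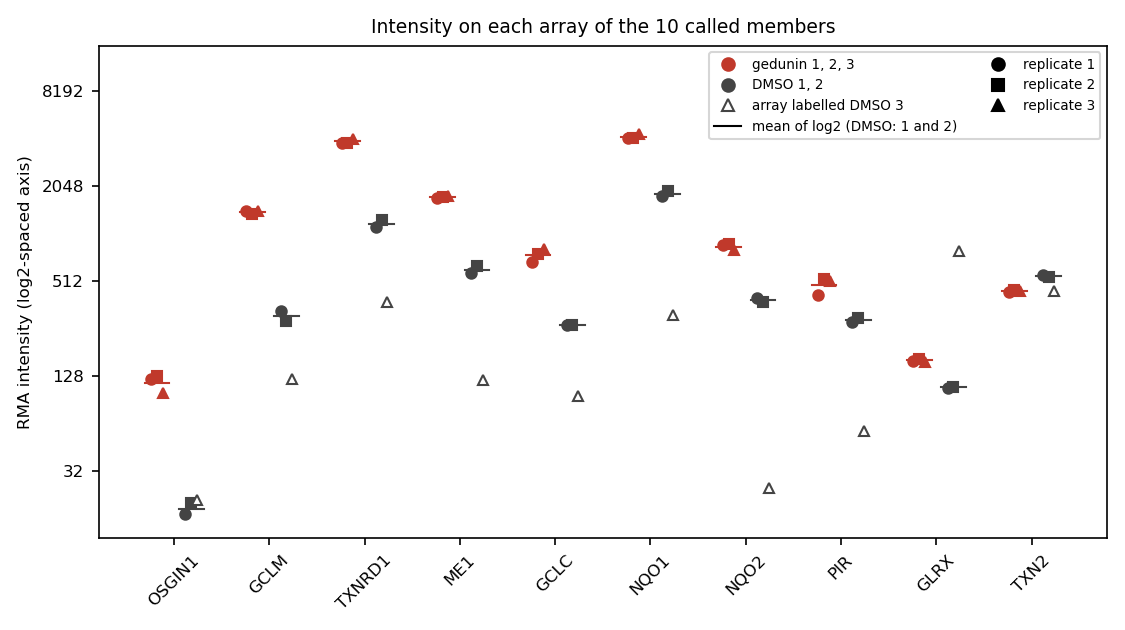
RMA intensity on each array, on an axis spaced by log2, of the 10 members called in the 5-array fit. Red marks are gedunin arrays, filled dark marks DMSO 1 and 2, the open triangle the array labelled DMSO 3, and bars are means of log2 values (DMSO 1 and 2 for the controls). For each gene the gedunin arrays stand clear of DMSO 1 and 2, above them for 9 genes and below them for TXN2, while the open triangle of GLRX lies above all other arrays.

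The group of quinone reductases and other detoxification genes held the largest rise. OSGIN1, an oxidative stress-induced growth inhibitor, read 123, 127 and 99.0 with gedunin and 17.0 and 19.9 on DMSO 1 and 2. Its control level lay below the array median, a range in which this normalization shrinks fold changes, and the rise was 2.65 ± 0.13 (limma adjusted p = 6.01e-07). It read 20.9 on the array labelled DMSO 3, below the array median as on DMSO 1 and 2. It was also called with all 6 arrays (2.59 ± 0.14, limma adjusted p = 0.00360), a fit that includes this array without LNCaP markers.

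NQO1, which reduces quinones by 2 electrons at the cost of NADPH or NADH, read 4126, 4162 and 4362 with gedunin and 1772 and 1907 on DMSO 1 and 2. It rose by 1.2 ± 0.09 (limma adjusted p = 1.43e-05), and its further probe sets rose by 1.47 ± 0.10 and 1.13 ± 0.09. NQO2, a related quinone reductase that uses dihydronicotinamide riboside rather than NADPH, read 863, 875 and 804 with gedunin and 401 and 378 on DMSO 1 and 2. Its rise of 1.12 ± 0.09 (limma adjusted p = 2.49e-05) was close to that of NQO1: the log2 ratio of NQO1 to NQO2 shifted by 0.08 ± 0.11 (SD, n = 3) on the gedunin arrays, a pair also chosen after its values were seen. PIR, an iron-binding nuclear protein with quercetinase activity, read 417, 524 and 515 with gedunin and 283 and 299.8 on DMSO 1 and 2, and rose by 0.73 ± 0.11 (limma adjusted p = 0.00189). EPHX1, microsomal epoxide hydrolase, which opens epoxides without any thiol or NADPH, overlapped between the groups. It read 1291, 1440.2 and 1458 with gedunin and 1377 and 1299 on DMSO 1 and 2, with 0.06 ± 0.09 (limma adjusted p = 0.746).

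The array labelled DMSO 3 read low for 4 genes of this group, with NQO1 at 314, NQO2 at 25.1, PIR at 57.6 and EPHX1 at 19.7. With all 6 arrays NQO1 had 2.05 ± 0.72, NQO2 2.44 ± 1.12 and PIR 1.51 ± 0.67 (limma adjusted p = 0.351, 0.494 and 0.474), so that these calls were lost.

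Among the genes of NADPH supply, the malic enzyme rose and the pentose phosphate enzymes were not called. ME1, cytosolic malic enzyme, which makes NADPH while turning malate to pyruvate, read 1726, 1742 and 1764 with gedunin and 572 and 636 on DMSO 1 and 2. The spread within each group was small beside the distance between them, with a rise of 1.53 ± 0.09 (limma adjusted p = 2.72e-06), or 2.89-fold. A second probe set of ME1 rose by 1.49 ± 0.09, and the remaining one, below the array median on all 6 arrays, had -0.01 ± 0.09. On the array labelled DMSO 3 ME1 read 120.4, and with all 6 arrays it had 2.31 ± 0.66 (limma adjusted p = 0.247).

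TALDO1, transaldolase, and TKT, transketolase, shuffle sugars in the non-oxidative branch of the pentose phosphate pathway. TALDO1 had 0.14 ± 0.09 (limma adjusted p = 0.379), with every gedunin array above both DMSO arrays. TKT read 1562, 1745 and 1496 with gedunin and 1743 and 1642 on DMSO 1 and 2, overlapping, with -0.08 ± 0.10 (limma adjusted p = 0.660). Their intervals stayed between -0.30 and 0.33.

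None of the peroxide-removing enzymes measured here was called in the 5-array fit. Of the 4 glutathione peroxidases, selenoenzymes like TXNRD1, 0 of 4 were called, where 17.6% of all genes were, and the median was -0.10. A count of 0 among so few genes is near that share. GPX1, the abundant cytosolic form, read 1668, 1789 and 1798 with gedunin and 1897 and 1961 on DMSO 1 and 2, lower on each gedunin array, with -0.14 ± 0.09 (limma adjusted p = 0.360). GPX4, which reduces lipid peroxides in membranes, had -0.11 ± 0.09 (limma adjusted p = 0.490). GPX2, the gastrointestinal form, and GPX3, the secreted form, read below the array median on every one of the 5 arrays. GPX2 read 22.6, 22.2 and 21.1 with gedunin and 20.5 and 24.5 on DMSO 1 and 2, with -0.03 ± 0.10, and GPX3 had -0.08 ± 0.12.

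Peroxiredoxins reduce peroxides with a reactive cysteine that thioredoxin restores, except PRDX6, which uses glutathione. Of 5 measured peroxiredoxins 0 were called, also near the share of all genes, with a median of -0.08. PRDX1, the main cytosolic form, read 7341, 6988 and 7127 with gedunin and 6419.6 and 5889 on DMSO 1 and 2. Its groups did not overlap, but the difference of 0.22 ± 0.09 was not called (limma adjusted p = 0.143), it passed when eBayes was run with trend and robust (adjusted p = 0.00446), and its value was 0.087 when centred on GAPDH and ACTB. PRDX4, the form of the endoplasmic reticulum, was on the other side, with 1449, 1274 and 1397 against 1663 and 1544 and a log2 fold change of -0.22 ± 0.09 (limma adjusted p = 0.159). It passed with trend and robust too (adjusted p = 0.0359) and when centred on GAPDH and ACTB (-0.36, adjusted p = 0.0238). The others were PRDX2 (-0.09 ± 0.09, cytosolic), PRDX3 (-0.08 ± 0.09, mitochondrial) and PRDX6 (0.07 ± 0.09). The intervals of these 5 genes lay between -0.44 and 0.42.

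The superoxide dismutases turn superoxide into hydrogen peroxide, which catalase breaks down without NADPH. SOD1, the cytosolic copper-zinc enzyme, read 4959, 5262 and 5214 with gedunin and 4569.6 and 4352 on DMSO 1 and 2. It was higher on each gedunin array, yet 0.21 ± 0.09 was not called (limma adjusted p = 0.158), passed with trend and robust (adjusted p = 0.00777), and was 0.075 when centred on GAPDH and ACTB. SOD2, the mitochondrial manganese enzyme, had 0.03 ± 0.11. CAT, catalase of peroxisomes, read 2913, 2749 and 2657 with gedunin and 2753 and 2852 on DMSO 1 and 2, with -0.02 ± 0.09 (limma adjusted p = 0.935).

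The glutathione transferases, which join glutathione to electrophiles, were the largest role. Of 13 measured genes 0 were called in the 5-array fit, where 17.6% of all genes were. Their median log2 fold change was -0.15, with 10 values below 0 and 3 above, beside a median of -0.02 over all genes. In 6 of them every gedunin array lay below both DMSO arrays (GSTO1, GSTK1, GSTT1, GSTZ1, MGST2 and MGST3), and in GSTA4 alone every gedunin array lay above, beside 26.0% and 20.2% of all genes. MGST2, a membrane-bound transferase, had the lowest value: it read 523, 500.5 and 518 with gedunin and 589 and 659.8 on DMSO 1 and 2, with -0.28 ± 0.09 (limma adjusted p = 0.0704). It was called under 6 of the other settings, all with 5 arrays, among them centring on GAPDH and ACTB (-0.41, adjusted p = 0.00908).

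GSTK1, the mitochondrial and peroxisomal form, had -0.28 ± 0.10 and GSTO1, the omega form, -0.25 ± 0.09 (limma adjusted p = 0.0927 for each). MGST3 had -0.23 ± 0.09, GSTZ1 of tyrosine breakdown -0.16 ± 0.10, and GSTT1 -0.15 ± 0.10. Centred on GAPDH and ACTB, GSTK1, GSTO1 and MGST3 were called lower (limma adjusted p = 0.0136, 0.0133 and 0.0253). With trend and robust GSTO1 (adjusted p = 0.0154) and MGST3 (adjusted p = 0.0288) were called lower too. GSTO1 also passed with the second quantile normalization, log2 of the value plus 16 and the mean of all probe sets (limma adjusted p = 0.0474, 0.0297 and 0.0488). It was not called under the remaining alternatives. GSTM3, a mu-class form read well above the array median, had -0.07 ± 0.09, and GSTA4, an alpha-class form that conjugates lipid aldehydes, 0.06 ± 0.09. The other mu-class genes read at most 47.6 on the 5 arrays, and their values are uncertain, since GSTM1, GSTM2 and GSTM4 are close copies whose probe sets may read each other. GSTM1 read 42.5, 46.0 and 47.6 with gedunin and 29.8 and 43.5 on DMSO 1 and 2, with 0.33 ± 0.14 (limma adjusted p = 0.170), and was called without DMSO 2 (0.61, adjusted p = 0.0196). GSTM2 had 0.05 ± 0.10 and GSTM4 -0.14 ± 0.16. GSTA1, an alpha-class form, had -0.19 ± 0.11 at intensities of 23.3 to 32.1.

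GSTP1, the pi-class transferase, known to be silenced by promoter methylation in LNCaP cells, read 20.4 to 21.3 with gedunin and 20.4 and 23.1 on DMSO 1 and 2 (-0.07 ± 0.09). It read 568 on the array labelled DMSO 3.

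By role, the members that rose came to 2 of 4 in glutathione synthesis and reduction, 2 of 6 in thioredoxins and glutaredoxins, 4 of 5 in quinone reductases and related genes, and 1 of 3 in NADPH supply. They came to 0 of 4 peroxidases, 0 of 5 peroxiredoxins, 0 of 13 transferases and 0 of 3 dismutases and catalase, beside 8.22% higher over all genes. Median log2 fold changes were 0.82 for synthesis and reduction and 1.12 for quinone reductases and other detoxification genes. They lay between -0.15 and 0.14 for the other 6 roles. Of the 33 members not called, 6 read below the array median in both groups (GPX2, GPX3, GSTA1, GSTM2, GSTM4 and GSTP1), where RMA shrinks differences and a narrow interval sets no limit on a change. The other 27 all had 95% intervals within a 2-fold change either way in the 5-array fit, the widest bounds being -0.49 and 0.66. Many were strongly read: 16 of the 33 exceeded an intensity of 1000 on each of the 5 arrays. The roles differ in size and the genes of a role are not replicates, so no test compares them.

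Each of the 9 rises kept its call under every alternative tried with the 5 arrays or 4 of them. NQO1, NQO2 and PIR have no value in one of these, which drops the probe sets shared between transcripts. The log2 fold change ranged from 1.28 to 1.54 for GCLC, from 2.05 to 2.28 for GCLM, from 1.94 to 2.77 for OSGIN1 and from 1.61 to 1.81 for TXNRD1. That of ME1 ranged from 1.00, as the mean of its 3 probe sets, the dim one included, to 1.61.

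**Figure D3:**
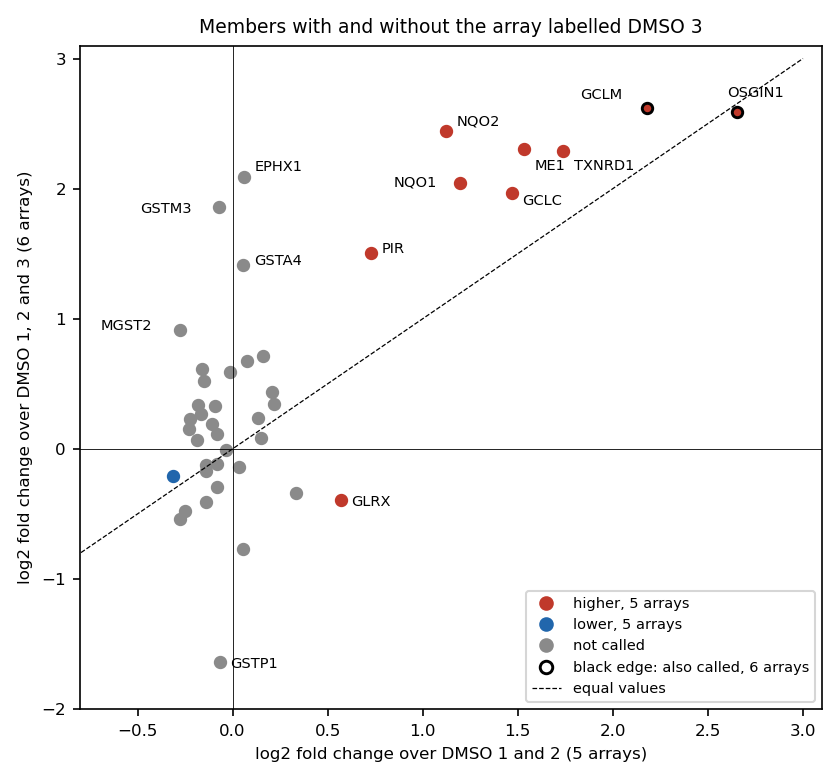
Log2 fold change of each of the 43 members over DMSO 1 and 2 (horizontal) and over DMSO 1, 2 and the array labelled DMSO 3 (vertical). Colours give the call of the 5-array fit, black edges mark the 2 genes called in both fits (GCLM and OSGIN1), and the dashed line marks equal values. EPHX1, GSTM3 and GSTA4 move up and GSTP1 moves down on the vertical axis alone, and 17 members differ in sign.

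The members were set beside 48 measured genes, of 55 listed, that feed, use or control the same systems. Of these 15 were higher and 6 lower in the 5-array fit, beside 8.22% and 9.35% of all genes, with a median log2 fold change of 0.10. The counts were 12 and 12 when centred on GAPDH and ACTB, 9 and 3 without DMSO 1 and 11 and 3 without DMSO 2. The remaining listed genes are not analysed here. The largest rises were in cystine uptake and glutathione breakdown, where 7 of 16 genes were higher and 1 was lower. SLC7A11 and SLC3A2, the light and heavy chains of the cystine importer, provide the cysteine for glutathione. SLC7A11 read 2274, 2330.2 and 2024 with gedunin and 594 and 625 on DMSO 1 and 2, with a rise of 1.86 ± 0.10 (limma adjusted p = 1.08e-06). SLC3A2 read 1151, 1149.8 and 1320.0 against 209.6 and 214, and rose by 2.51 ± 0.10 (adjusted p = 1.56e-07). No array of one group reached into the other for either chain.

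CHAC1, which cleaves glutathione, read 1267, 1227 and 1204 with gedunin and 63.2 and 67.4 on DMSO 1 and 2, an 18.9-fold rise (limma adjusted p = 6.42e-09) and the largest among members and related genes. The messengers of the enzyme that begins glutathione synthesis and of one that degrades it were thus both higher. These arrays do not measure the proteins or glutathione itself. CTH, cystathionine gamma-lyase, which makes cysteine from cystathionine, read 75.6, 101 and 52.6 with gedunin and 21.9 and 27.0 on DMSO 1 and 2, from below the array median. It rose by 1.60 ± 0.22 (adjusted p = 9.34e-04). With all 6 arrays SLC3A2 (2.74) and CHAC1 (4.55) were called, and SLC7A11 (3.30 ± 1.22, limma adjusted p = 0.38) and CTH (1.56 ± 0.26, adjusted p = 0.0670) were not.

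Of 13 measured related genes of NADPH supply 3 were higher and 1 lower, beside 8.22% and 9.35% of all genes. MTHFD2, a mitochondrial folate enzyme that makes NADH or NADPH, read 1124, 1110.4 and 1107 with gedunin and 408 and 476 on DMSO 1 and 2, and rose by 1.34 ± 0.10 (limma adjusted p = 1.12e-05; 1.14 with all 6 arrays, adjusted p = 0.0690). ME2, the mitochondrial malic enzyme, rose by 0.58 ± 0.10 (limma adjusted p = 0.00353), so that the log2 ratio of ME1 to ME2 was still higher by 1.07, 0.88 and 0.91 on the gedunin arrays. ME2 was picked out after its value was seen.

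Of 11 measured thioredoxin-fold and peroxide repair genes 1 was higher, close to the share of all genes (8.22%). In the same group 4 were lower, beside 9.35% of all genes. SRXN1, TXNDC12, GPX8 and SESN2 were listed in it too but had no probe set naming that gene alone. TXNIP, which binds and inhibits thioredoxin, read 822, 847 and 932 with gedunin and 1713 and 1673 on DMSO 1 and 2. Both DMSO arrays were about the same and each gedunin array lay below them, a fall of 0.97 on the log2 scale ± 0.09 (limma adjusted p = 8.09e-05; -0.29 ± 0.58 with all 6 arrays, adjusted p = 0.859). TXNIP, NFE2L2, BACH1, NFE2L1 and KEAP1 lie outside the rule for named genes and were picked out after their values were seen.

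Of 8 measured regulators of the antioxidant response 4 were higher and 0 lower, beside 8.22% and 9.35% of all genes. The list was drawn up with earlier results of these data known. MAFG, a small MAF partner of NRF2, read 123, 125 and 92.3 with gedunin and 27.1 and 25.4 on DMSO 1 and 2, below the array median there as OSGIN1 was. It rose by 2.10 ± 0.13 (limma adjusted p = 5.05e-06), also with all 6 arrays (1.93 ± 0.20, adjusted p = 0.0193). NFE2L2, which encodes NRF2, read 559, 549 and 508 with gedunin and 334 and 343 on DMSO 1 and 2, a rise of 0.67 ± 0.09 (limma adjusted p = 7.35e-04; 0.84 ± 0.17 with all 6 arrays, adjusted p = 0.104). BACH1, a repressor known to compete with NRF2 for these elements, read 37.1, 34.9 and 29.1 with gedunin and 23.3 and 24.0 on DMSO 1 and 2, again from below the array median, and rose by 0.50 ± 0.11 (limma adjusted p = 0.0137; 0.44 with all 6 arrays, adjusted p = 0.254). NFE2L1, a related factor, rose by 0.32 ± 0.08 (limma adjusted p = 0.0285). KEAP1, the inhibitor of NRF2, overlapped between the groups and had 0.07 ± 0.10 (limma adjusted p = 0.742). These are messenger levels, and NRF2 is known to be controlled mainly at the protein.

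**Figure D4:**
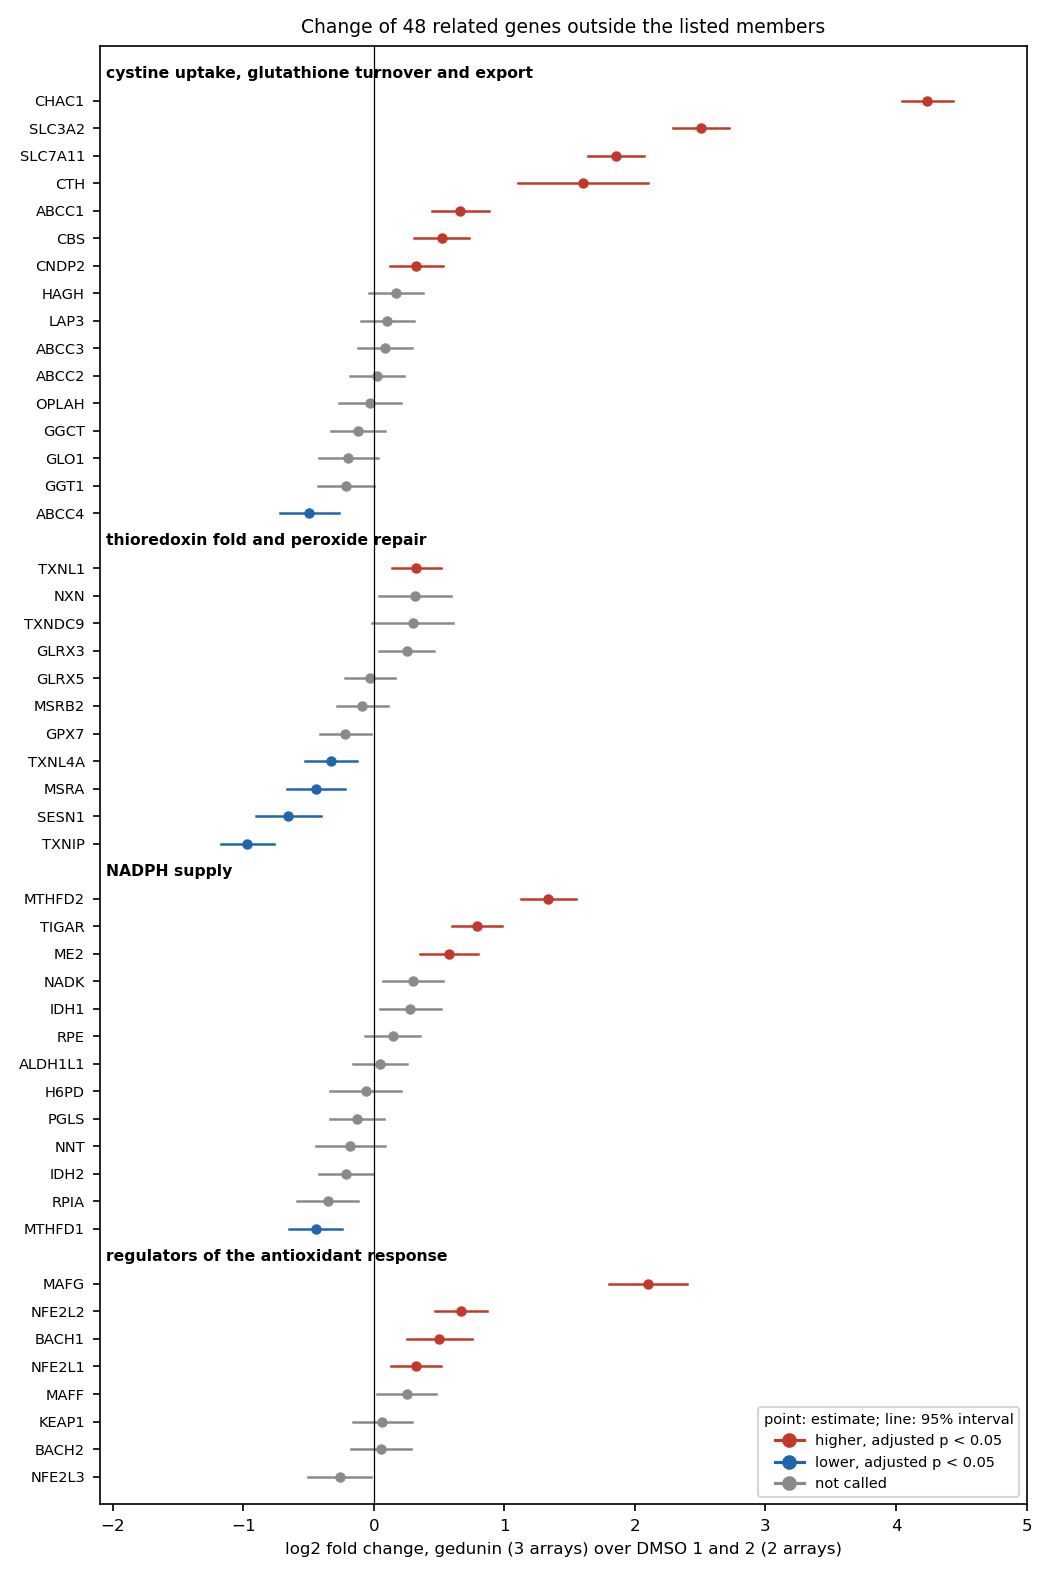
Log2 fold change, gedunin (3 arrays) over DMSO 1 and 2 (2 arrays), of the 48 measured related genes, with limma 95% intervals and calls coloured as red (15 higher), blue (6 lower) and grey. CHAC1, SLC3A2, MAFG and SLC7A11 stand furthest to the right and TXNIP furthest to the left.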

How the data were processed

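Each of the 6 arrays gave an intensity for 22215 probe sets, deposited on a linear scale (lowest value 11.0) with RMA named in the submitters' processing notes, without a version. RMA corrects background, quantile-normalizes arrays and summarises probes, so low values are compressed. Which arrays were processed together, and detection calls, are not given in the sources used here.

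Probe sets were named with the platform annotation supplied for these arrays: 19724 named 1 gene, 568 several and 1923 none. Of the former 19707 matched RefSeq by Entrez identifier and 0 symbols changed. Each gene was represented by its brightest probe set (mean of 6 arrays). Gedunin was compared with DMSO 1 and 2 by limma (version 3.58.1, R 4.3.3), lmFit and eBayes on log2 intensity with no filter, and Benjamini-Hochberg adjustment over all probe sets at 0.05. Errors are moderated standard errors. The number of arrays limits the precision. The code was tested on simulated data.

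Members and lists were chosen with earlier results of these data known. Members with an absolute log2 fold change of at least 0.5 past the threshold, and the highest and lowest of each role, are given on every array, and related genes are named from a log2 fold change of 1. Protein features planned for the members are not analysed here. Promoter windows are from RefSeq (GRCh38.p14), matched by symbol. The alternatives were all 6 arrays, leaving out each array, a replicate block, a filter on dim probe sets, 2 centrings, a second quantile normalization, log2 of the value plus 16, 2 variance models, a threshold of 0.01 and 3 choices of probe set.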

Additional observations from a re-analysis of the deposited data

Results flagged for a closer look

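On the array labelled DMSO 3, which enters no 5-array comparison, 1 member and 1 related gene stood at least 8-fold above both other DMSO arrays. GSTP1 read 568 there, against at most 23.1 on DMSO 1 and 2. NNT, the mitochondrial transhydrogenase that makes NADPH, read 306, against at most 21.8.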

How the results depend on the processing

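The 9 members that rose were called under each of the 17 alternatives other than all 6 arrays, or 150 of 150 values, counting 16 alternatives for NQO1, NQO2 and PIR, which have no probe set without the suffix _s_at. With all 6 arrays 2 members were higher and 0 lower, 161 genes of all were higher and 43 lower, and 4 related genes were higher and 0 lower. Leaving out 1 of the 5 arrays gave 9 to 10 members higher and 0 lower, 597 to 935 genes of all higher and 528 to 1000 lower, and 9 to 15 related genes higher and 3 to 6 lower. Without DMSO 1 there were 597 genes of all higher, 555 lower and 9 related genes higher, and without DMSO 2 653 genes higher and 528 lower. Both fits without a DMSO array had 3 lower; a lone DMSO array was assumed to vary like the gedunin arrays. Members called lower, 1 in the 5-array fit, came to 0 with the replicate block, at a threshold of 0.01 and without _x_at and _s_at probe sets, to 2 with the filter on dim probe sets and with the mean of all probe sets, to 3 with the second quantile normalization and with log2 of the value plus 16, to 5 with trend and robust, and to 7 when centred on GAPDH and ACTB. With that centring the all-gene median was -0.15, with 2562 genes of all lower, and 12 related genes lower. The threshold of 0.01 gave 648 genes of all higher and 559 lower, and dropping _x_at and _s_at probe sets 573 and 698, with 3 related genes lower.

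Replicate numbers showed no sign of pairing: gedunin and DMSO of number 1 deviated from their group means with a correlation of -0.03, those of number 2 with 0.04. The deviations of 2 DMSO arrays are mirror images, so these are not separate checks, and number 3 was not checked. Whether the arrays were paired is thus not settled. With the replicate block, in which gedunin 3 carries no weight for the contrast, 9 members were higher and 0 lower, since TXN2 was not called (adjusted p = 0.0875).

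Of 862 recomputed values of members and named related genes 37 changed sign, of which 1, GLRX with all 6 arrays (-0.39), belonged to a called gene. With all 6 arrays the others were GSS 0.26, GPX4 0.19, TXNRD2 0.33, PRDX2 0.33, PRDX3 0.11, PRDX4 0.23, GSTA1 0.067, GSTM1 -0.34, GSTM2 -0.77, GSTM3 1.86, GSTT1 0.52, GSTZ1 0.62, MGST2 0.91, MGST3 0.15, SOD2 -0.14 and CAT 0.59. Centred on GAPDH and ACTB they were PRDX6 -0.058, GSTA4 -0.074, GSTM2 -0.078, SOD2 -0.10 and EPHX1 -0.070. Leaving out each array in turn gave GPX2 from -0.16 to 0.097, GPX3 from -0.28 to 0.11, GSTM2 from -0.026 to 0.13, GSTM3 from -0.16 to 0.017, GSTM4 from -0.31 to 0.036, GSTP1 from -0.15 to 0.023, SOD2 from -0.075 to 0.10 and CAT from -0.052 to 0.014. The rest were GPX3 0.24 without _x_at and _s_at probe sets, GPX3 0.077 and PRDX2 0.013 with the mean of all probe sets, and CAT 0.014 with the replicate block and 0.0045 centred on medians. The cause of these changes was not tested.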

Other observations

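Apart from GSTP1, 5 members differed at least 8-fold between the array labelled DMSO 3 and the mean of DMSO 1 and 2, and all 5 read lower on it. EPHX1 stood at 19.7 against 1377 and 1299, GSTM3 at 21.7 against 1137 and 1285, GSTA4 at 44.7 against 740.4 and 755, NQO2 at 25.1 against 401 and 378, and MGST2 at 52.6 against 589 and 659.8. By contrast GPX1 read 1871 there against 1897 and 1961, TXN 1521 against 1475 and 1361, and TKT 1823 against 1743 and 1642. The median difference of the 43 members from DMSO 1 and 2 on that array was -0.90 on the log2 scale.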
